A study of Homo sapiens with 6 samples.

Results

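CircRNAs whose annotation entry names more than 1 gene were examined in BEAS-2B, a cell line derived from the epithelium of human bronchi and immortalised with viral genes. A member had at least 2 Ensembl gene identifiers in its entry and was not classed as intronic. This held for 215 of the 9857 circRNAs in the series, and 9543 others had 1 identifier, 74 had none and 25 were intronic entries with several genes. RNA came from 3 libraries of cells grown for 20 weeks in 2.0 µM cadmium and 3 libraries of cells carried for the same 20 weeks at 0.0 µM. The labels give no further genotype or agent for either group, and they do not say whether the replicates were separate cultures, so the spread behind each p-value may be technical. Back-splice junction reads were counted after ribosomal RNA removal and RNase R digestion of linear RNA. Each library held between 133185 and 225769 such reads, of which the 215 members took 17037 in all. Junction reads of circRNAs offer no check of the labelled cell line.

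A circRNA forms when the end of an exon is spliced back to the start of the same or an earlier exon, which closes the RNA into a ring. A read across that back-splice marks the circle and is absent from the linear mRNA. Neighbouring genes on the same strand are sometimes copied as a single read-through transcript, and annotation catalogues give such a transcript a gene identifier of its own, often written as the names of both neighbours joined by a hyphen. The exons of a gene then belong to the read-through gene as well. Cadmium is a toxic metal and a lung carcinogen.

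The description of these circRNAs as spanning neighbouring genes went against the data. In 204 of 215 members (94.9%), both ends of the circle lay on exon bounds that 2 or more GENCODE 29 genes share. A gene with transcripts tagged as read-through in GENCODE 29 was listed for 212 members, and all listed genes lay on the strand of the circle for all 215. Of the members, 213 lay wholly inside at least 1 gene that is not made of read-through transcripts alone. The 3 members without a read-through gene listed genes that overlap on 1 strand (ARID4B and RBM34; LRRC23 and RPL13P5; RAD54B and FSBP). The remaining members comprised 8 with 1 end on a GENCODE 29 exon bound and 1 with neither end on one. In 2 others the ends lay on exon bounds of different genes. In both of these the other gene was again a read-through annotation, so no member had its ends on exon bounds of different stand-alone genes. Members with an end off every exon bound could not be assessed in this way. The members are therefore called multi-gene circRNAs here for their entries, not for their structure.

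The back-splice sequences show this sharing at base level. Below, the last 15 bases before the back-splice (the donor exon) are in lower case and the first 15 bases after it (the acceptor exon) are in capitals, read 5′ to 3′ from GENCODE 29 transcripts on GRCh38. The first 4 come from ANKHD1, the gene with the most members, and show how a small number of exon ends combine.
hsa_circ_0001541: atggaggcctgcatgTCGCAGTCTAGCAGA
hsa_circ_0001540: ttgcttgctacaaagTCGCAGTCTAGCAGA
hsa_circ_0007402: atggaggcctgcatgGAATTGGCAAATTGT
hsa_circ_0007862: ttgcttgctacaaagGAATTGGCAAATTGT
The donors lie on the plus strand at chr5:140449291-140449305 (exon 7, hsa_circ_0001541 and hsa_circ_0007402) and chr5:140445961-140445975 (exon 6, hsa_circ_0001540 and hsa_circ_0007862). The acceptors lie at chr5:140440119-140440133 (exon 4) and chr5:140438461-140438475 (exon 3). The next 5 belong to circles described further on, and are shown because the comparisons of single circles turn on them.
MATR3 hsa_circ_0008922: accaagataagtaacGATGACTTGAAAGTA
EEF1AKMT2 hsa_circ_0008969: aacattaagttaaagTTGGGATGCTGTCTA
UCHL3 hsa_circ_0000494: gaaggtcagactgagTTTCTTAAACAATTA
SPECC1L hsa_circ_0007312: ccaagattagcacagATTTGCTTGTAAATG
SDHAF2 hsa_circ_0000311: actactgggccacagATGCTTGCTCTGTCA
The circles span chr5:139278327-139279129 (MATR3, plus strand), chr10:124774675-124790338 (EEF1AKMT2, minus strand), chr13:75560753-75569507 (UCHL3, plus strand), chr22:24302195-24313466 (SPECC1L, plus strand) and chr11:61437625-61438113 (SDHAF2, plus strand). For each of these 9 circles, the donor bases and the acceptor bases occurred in transcripts of both listed genes, so a junction read cannot tell the gene from the read-through. A search of the 40 bases at each end of the 204 members, or 30 bases at 1 end of 1 member with a short exon, found both ends in a gene elsewhere in the genome for 1 of them, the TVP23C circle hsa_circ_0006505, whose reads could also come from TVP23B.

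**Figure D1:**
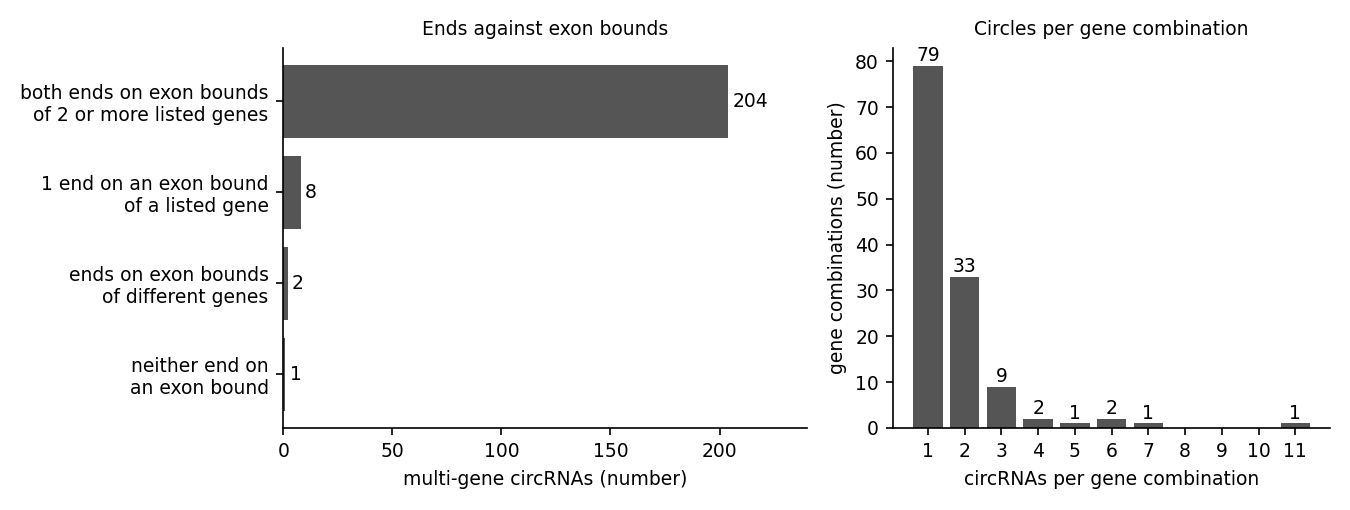
Left, bars give the number of multi-gene circRNAs by where their ends lie relative to exon bounds of the listed genes. In 204 both ends lie on bounds shared by 2 or more listed genes, against 8, 2 and 1 in the other classes. Right, bars give the number of gene combinations by how many circRNAs they hold, and 79 of 128 hold 1.

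The members fell into 128 gene combinations made of 240 distinct genes, 108 of which consist of read-through transcripts alone. Of the other 132 genes, 126 are protein coding. An entry named 2 genes for 210 members and 3 genes for 5. The stand-alone gene was the one nearer the 5′ end of its read-through in 104 members and nearer the 3′ end in 95, so circles came from both sides of the joined genes. For 14 read-through genes, circles were listed from both of the genes joined, among them C15orf38-AP3S2 and STX16-NPEPL1. Of the 128 combinations, 90 had no circle listed under 1 of their genes alone, so the circles of these genes stand under multi-gene entries alone.

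Size, abundance and exon use are set beside those of other exonic circles as a description, with no test. Their median genomic span was 4513 bases, against 6482.5 bases for the 9186 exonic circRNAs with 1 identifier. The spliced length given by the authors had a median of 368 bases in members and 381 bases in single-identifier circles. Median junction reads per library were 6.33 in members and 6.67 in single-identifier circles. Of the 204 members with exon numbers, 67 (32.8%) began at exon 2 of the transcript used for numbering, against 26.0% of 8694 single-identifier circles. None of the 204 began at exon 1 or ended at the last exon.

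Reads were spread over many weakly counted circles. The 8 most abundant members held 25.1% of all member reads, and 91 members had under 10 reads in every library. The highest, the ANKHD1 circle hsa_circ_0001541 (exons 4 to 7), averaged 655 CPM (reads scaled to equal library size) over the 6 libraries and ranked 195th of all circRNAs. ANKHD1 encodes a large protein with ankyrin repeats and a KH domain, and its read-through joins it to EIF4EBP3, whose product binds the cap-binding factor eIF4E.

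The ANKHD1 circle had 621, 616 and 517 CPM in cadmium libraries and 683, 733 and 758 CPM in control libraries, so the groups did not overlap and every cadmium library was lower. The SPECC1L circle hsa_circ_0007312 (exons 3 to 4) comes from a gene for a protein that links actin and microtubules, joined by read-through to the adenosine receptor gene ADORA2A. It had 429, 434 and 530 CPM in cadmium libraries and 620, 638 and 668 CPM in control libraries, again without overlap. CHD2 encodes a chromatin remodeller. Its circle hsa_circ_0007262 (exons 3 to 5) had 459, 413 and 466 CPM in cadmium libraries and 602, 508 and 529 CPM in control libraries. The TMEM56 circle hsa_circ_0000095 (exons 2 to 5) had 414, 420 and 415 CPM in cadmium libraries and 481, 472 and 650 CPM in control libraries.

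These 4 of the 8 were lower in every cadmium library than in any control library, and 0 of the 8 were higher in that sense. Over all tested circRNAs the shares were 7.78% lower and 7.52% higher, and no share was computed for circRNAs of like abundance. Over all 128 tested members the lean was the other way, with 6 (4.69%) lower and 13 (10.2%) higher. In the other 4 of the 8 most abundant members the groups overlapped. SDHAF2 encodes a factor that attaches the flavin to succinate dehydrogenase. Its circle hsa_circ_0000311 (exons 2 to 3) had 592, 775 and 893 CPM in cadmium libraries and 333, 609 and 656 CPM in control libraries, with control replicate 1 lowest of all 6. The TMEFF1 circle hsa_circ_0004425 (exons 2 to 5) averaged 578 ± 184 CPM in cadmium libraries and 669 ± 41.2 CPM in control libraries (SD, n = 3 each). BABAM1 encodes a subunit of a BRCA1 complex, and RBM4 an RNA-binding splicing regulator. The BABAM1 circle hsa_circ_0003253 averaged 532 ± 175 CPM in cadmium libraries and 505 ± 83.8 CPM in control libraries. The single-exon RBM4 circle hsa_circ_0000330 averaged 522 ± 69.6 CPM in cadmium libraries and 453 ± 63.9 CPM in control libraries.

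**Figure D2:**
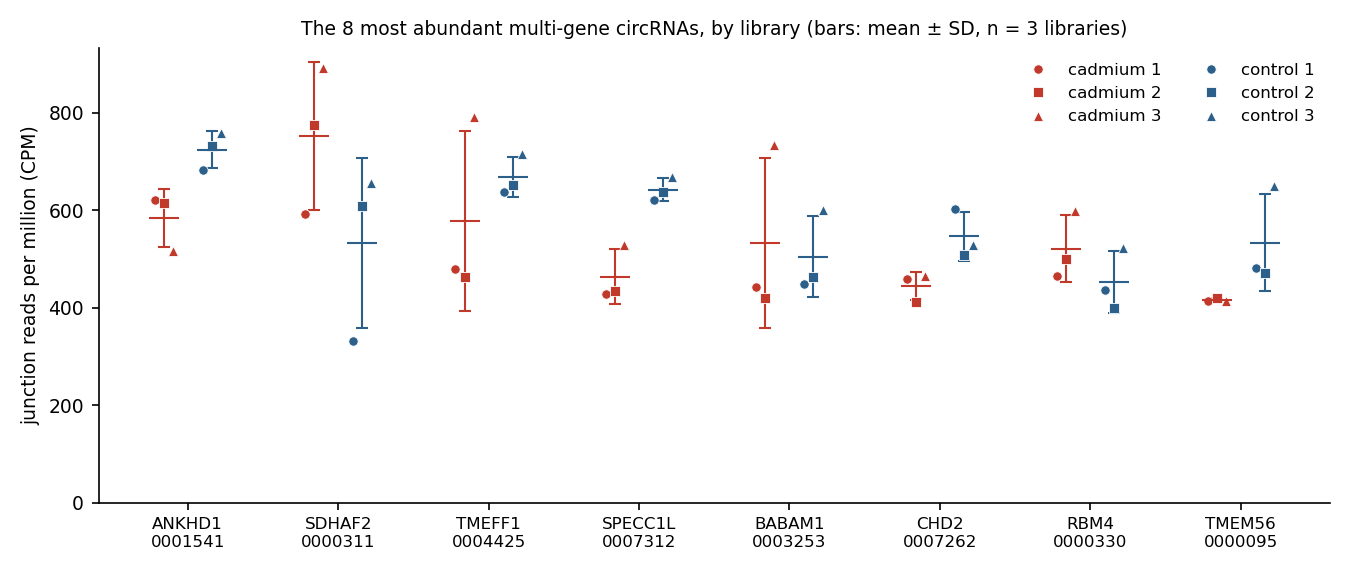
Points give the CPM in each library for the 8 most abundant multi-gene circRNAs, cadmium left in red and control right in blue, with bars for the mean ± SD of 3 libraries. The ANKHD1, SPECC1L, CHD2 and TMEM56 circles lie lower in all cadmium libraries than in any control library, and in the other 4 the groups overlap.

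Whether long cadmium exposure changed single multi-gene circles was tested with edgeR over all circRNAs. No member passed: 0 of 128 tested members reached an adjusted p under 0.05 in edgeR's quasi-likelihood test, in a table where 0.0809% of 6182 tested circRNAs did. Before adjustment, 8 members were higher with cadmium at a p under 0.05, against 4.32% of all tested, and 2 were lower, against 3.88% of all tested. Together these 10 are 7.81% of the tested members, near the 8.20% of all tested circRNAs. Cadmium libraries lay above all controls in 13 tested members (10.2%, against 7.52% of all tested) and below all controls in 6 (4.69%, against 7.78%). The median log2 fold change was 0.06 in members and 0.01 in all tested circRNAs. DESeq2 also called 0 members, and limma on log2(TPM + 1) called 0, each against 5 of all 6182 tested circRNAs.

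The members with the smallest p-values were therefore not told apart from the spread of the libraries once all tests were counted. Among those higher, the MATR3 circle hsa_circ_0008922 (exons 3 to 5) had 55, 36 and 73 reads in cadmium libraries and 37, 32 and 43 reads in control libraries. MATR3 encodes matrin 3, a nuclear matrix protein that binds RNA. The entry lists a gene identifier named MATR3 and SNHG4, a host gene of small nucleolar RNAs. Another identifier named MATR3, listed for other circles, is not in this entry. The exons are shared with SNHG4, so the circle is not assigned to matrin 3. In CPM the circle averaged 378 ± 106 in cadmium libraries and 219 ± 47.5 in control libraries (SD, n = 3 each), and all cadmium libraries were above all controls. Its log2 fold change was 0.80 ± 0.26 (SE), with an edgeR adjusted p of 0.436, the lowest of any member.

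The next 4 higher circles had edgeR adjusted p-values from 0.458 to 0.522. EEF1AKMT2 encodes a methyltransferase that acts on the translation elongation factor eEF1A. Its circle hsa_circ_0008969 (exons 2 to 4) had 14, 17 and 15 reads in cadmium libraries and 9, 7 and 11 reads in control libraries, a log2 fold change of 1.04 ± 0.38. SARS2 encodes the mitochondrial seryl-tRNA synthetase, and its circle hsa_circ_0050954 (exons 9 to 13) had 34, 19 and 51 reads in cadmium libraries and 32, 19 and 21 reads in control libraries, where the groups overlapped in CPM. PSMD9 encodes an assembly chaperone of the proteasome, and UCHL3 a ubiquitin hydrolase. The PSMD9 circle hsa_circ_0008670 (exons 2 to 4) had 22, 11 and 20 reads in cadmium libraries and 15, 7 and 11 reads in control libraries. The UCHL3 circle hsa_circ_0000494 (exons 3 to 6) averaged 472 ± 45.8 CPM in cadmium libraries and 337 ± 42.9 CPM in control libraries (SD, n = 3 each), a log2 fold change of 0.48 ± 0.19.

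On the lower side, the SPECC1L circle had the smallest p, with 58, 60 and 83 reads in cadmium libraries and 138, 88 and 111 reads in control libraries. Its log2 fold change was -0.46 ± 0.17 (SE), with an edgeR adjusted p of 0.475. A TPD52 circle, novel_circ_0037566, had 4, 4 and 14 reads in cadmium libraries and 23, 15 and 20 reads in control libraries, and cadmium replicate 3 lay nearer the controls than the other two. Its log2 fold change was -1.12 ± 0.45, with an edgeR adjusted p of 0.522, and -1.91 without cadmium replicate 3 (edgeR adjusted p = 0.262). The log2 fold changes of the ANKHD1, TMEM56 and CHD2 circles shown above were smaller, at -0.31 ± 0.17, -0.36 ± 0.19 and -0.30 ± 0.18, with edgeR adjusted p-values of 0.657, 0.657 and 0.696.

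**Figure D3:**
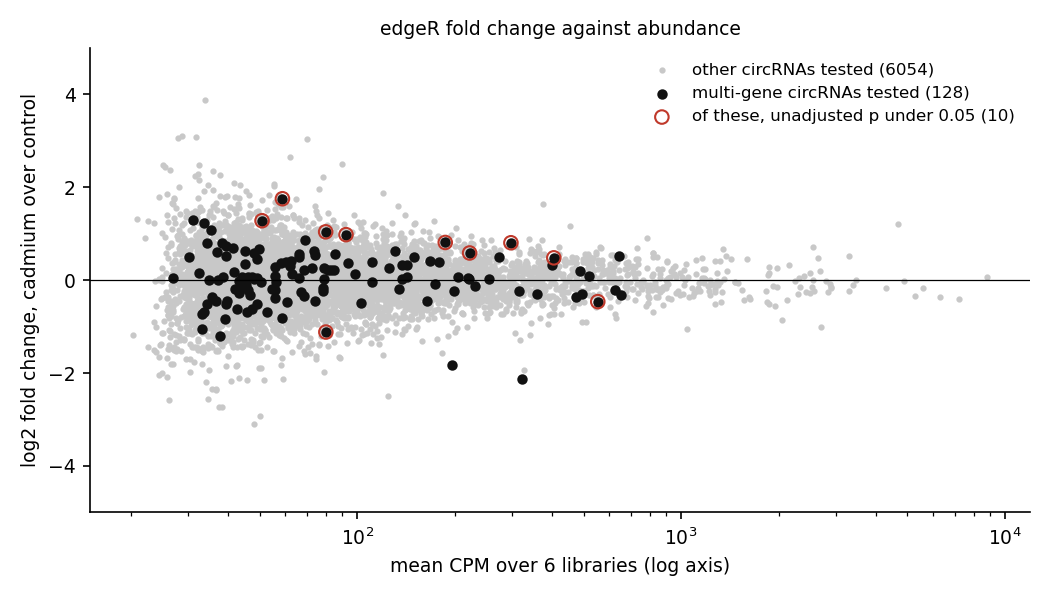
Each point is a circRNA tested with edgeR, its mean CPM over 6 libraries on a log axis against its log2 fold change, cadmium over control. The 128 multi-gene circRNAs (black) lie among the other tested circRNAs (grey, 2 of them beyond the plotted range), and red rings mark the 10 with an unadjusted p under 0.05, 8 above and 2 below the line at no change.

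The lowest fitted fold changes among the tested members rested on zeros (log2 fold changes of -2.12 and -1.84, edgeR adjusted p = 0.742 and 0.772). The ARF3 circle hsa_circ_0003770, from a gene for a small GTPase of Golgi traffic, had 0, 0 and 54 reads in cadmium libraries and 100, 57 and 121 reads in control libraries. The RBM27 circle hsa_circ_0006087, from a gene for an RNA-binding protein, had 0, 36 and 0 reads in cadmium libraries and 73, 47 and 41 reads in control libraries. In the cadmium library with reads, the ARF3 circle was at 345 CPM, against 414 to 728 CPM in control libraries, and the RBM27 circle at 261 CPM, against 247 to 341 CPM in control libraries. The mean of the other cadmium libraries implied between 17.6 and 23.8 reads where a zero is listed. The count table holds no value of 1, and why these zeros are listed was not tested. Without cadmium replicate 3, the ARF3 circle was the 1 member that passed (log2 fold change -9.42, a fitted value against zeros and no bound; edgeR adjusted p = 0.000126). Without cadmium replicate 2, the RBM27 circle was the 1 member that passed (log2 fold change -8.65, likewise no bound; edgeR adjusted p = 0.00115). In control libraries, SPECC1L hsa_circ_0062603 had 0, 17 and 2 reads and MATR3 novel_circ_0030718 had 26, 0 and 11 reads. At each of these zeros the other control libraries implied 10 or more reads. For the SPECC1L circle this rested almost wholly on control replicate 2.

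Some members were listed in 1 group only, all at low counts. Of the 215 members, 6 (2.79%) were listed in all cadmium libraries and no control library, against 0.943% of all 9857 circRNAs. The reverse held for 5 members (2.33%), against 2.15% of all circRNAs. The 6 cadmium-only circles had between 8 and 13 reads over 3 libraries. They came from RAB4B, AS3MT, ZNF410, ZBTB8A, ZMYM6 and CHKB, of which AS3MT encodes the arsenite methyltransferase and CHKB a choline kinase. The 5 control-only circles had between 9 and 23 reads, and were listed under TVP23C, FAM234A, MED17, MFSD14A and HS2ST1. The TVP23C circle was hsa_circ_0006505, whose reads could also come from TVP23B. A table entry requires reads in all 3 libraries of at least 1 group, and no fold is given for these circles.

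Summing the circles of each gene combination gave 96 combinations with enough reads for the test. None passed: 0 of 96 had an edgeR adjusted p under 0.05, against 0.226% of 3104 gene entries (0.0322% higher and 0.193% lower). Before adjustment, 8 combinations were higher with cadmium at a p under 0.05, against 5.80% of all gene entries, and 4 lower, against 6.73%; together they are 12.5% of those tested, against 12.5% of all gene entries. Cadmium libraries lay above all controls in 9 combinations, against 8.86% of all gene entries, and below all controls in 6, against 10.3%. DESeq2 called 0, against 12 of all 3104 gene entries, and limma called 0, against 4 of them. The lowest edgeR adjusted p was 0.253, for the 2 MATR3 and SNHG4 circles together, at 58, 41 and 73 reads in cadmium libraries and 44, 34 and 51 reads in control libraries. The MED17 circles, from a gene for a Mediator subunit, summed to 6, 4 and 8 reads in cadmium libraries and 26, 7 and 19 reads in control libraries. Leaving out cadmium replicate 2 or cadmium replicate 3 gave 1 lower call each.

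ANKHD1 was the combination with the most members, 11 circles and 1677 reads. The 4 circles whose sequences are shown above use 2 acceptors, exons 3 and 4, with 2 donors, exons 6 and 7, in all 4 pairings. They held 79.7 ± 1.01% of the ANKHD1 reads in cadmium libraries and 83.5 ± 1.02% in control libraries (SD, n = 3 each). Both circles that end at exon 7 had lower fitted levels with cadmium, and both that end at exon 6 had higher ones, all with edgeR adjusted p-values from 0.657 to 0.852. Log2 fold changes were -0.31 for hsa_circ_0001541 and -0.24 for hsa_circ_0007402, which end at exon 7. They were 0.33 for hsa_circ_0001540 and 0.38 for hsa_circ_0007862, which end at exon 6.

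Expressed as a share of the 4 circles, those ending at exon 7 made up 58.5%, 52.8% and 51.2% of reads in cadmium libraries and 61.9%, 66.8% and 66.0% in control libraries. The groups did not overlap, and cadmium replicate 1 and control replicate 1 were the closest values. The share starting at exon 4 was 72.8 ± 0.544% in cadmium libraries and 74.3 ± 2.18% in control libraries, which overlapped. Starting from exon 4, circles ending at exon 7 took 56.8 ± 4.47% in cadmium libraries and 67.3 ± 4.24% in control libraries, and starting from exon 3 they took 47.2 ± 6.33% and 58.0 ± 1.73% in cadmium and control libraries (SD, n = 3 each). The donor comparison was chosen after these values were seen, and no test is given for it.

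**Figure D4:**
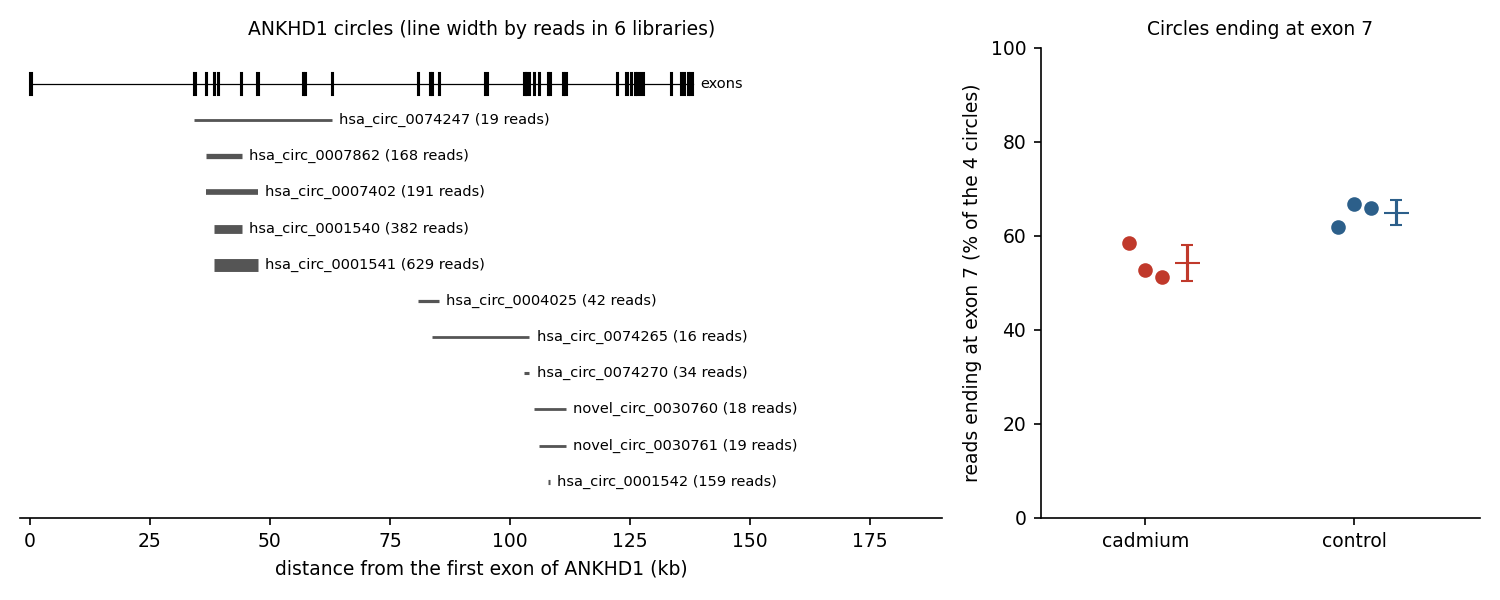
Left, the 11 ANKHD1 circles are drawn by distance from the first exon in kb, with exons above and line width by reads in 6 libraries. Most reads lie in 4 overlapping circles near the 5′ side. Right, points give the percent of reads of those 4 circles that end at exon 7 in each library, with mean ± SD, 54.2 ± 3.83 in cadmium and 64.9 ± 2.62 in control libraries.

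The rest of the ANKHD1 circles were weaker. The circle of exons 21 to 22, hsa_circ_0001542, had 23, 28 and 32 reads in cadmium libraries and 31, 17 and 28 reads in control libraries, and in CPM the cadmium libraries were all higher (log2 fold change 0.42 ± 0.27, edgeR adjusted p = 0.714). The 6 others had between 16 and 42 reads over all libraries. They reach from exon 2 to exon 24 of 34, so circles were listed along most of the gene.

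CSNK1G1, which encodes a casein kinase, had 7 members on the minus strand of chromosome 15. They summed to 40, 32 and 45 reads in cadmium libraries and 59, 39 and 40 reads in control libraries, with overlap between the groups once scaled (log2 fold change 0.04 ± 0.21, edgeR adjusted p = 0.961). A pair of circles shared the acceptor of exon 3: the single-exon hsa_circ_0007949 and the circle of exons 3 to 5, hsa_circ_0004256, which had 13, 7 and 12 reads in cadmium libraries and 23, 9 and 13 reads in control libraries. The other 5 lie between exons 6 and 11 and reuse the donors of exons 10 and 11.

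RABGEF1, which encodes an exchange factor for the endosomal GTPase Rab5, had 6 members. They summed to 72, 77 and 122 reads in cadmium libraries and 151, 96 and 97 reads in control libraries (log2 fold change -0.08 ± 0.17, edgeR adjusted p = 0.878). The circle of exons 3 to 4, hsa_circ_0006032, held 46.3 ± 6.37% of these reads in cadmium libraries and 52.8 ± 9.62% in control libraries, more than any other circle of the gene. For 2 of the 6, hsa_circ_0005592 and hsa_circ_0002036, no transcript held both ends on exon bounds.

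The 11 members without both ends on shared exon bounds had between 9 and 119 reads over the 6 libraries, and 5 of them were above the median of 38 reads over all members. The best counted, the CHMP4A circle novel_circ_0007176 with 1 end on an exon bound, had 21, 15 and 23 reads in cadmium libraries and 24, 16 and 20 reads in control libraries. The C1orf50 circle hsa_circ_0004752, at chr1:42773563-42775479 on the plus strand, had its other end on an exon bound of the read-through gene AC098484.3. It had 7, 7 and 8 reads in cadmium libraries and 18, 5 and 4 reads in control libraries (log2 fold change 0.05 ± 0.52, edgeR adjusted p = 0.986; 0.76 without control replicate 1). The ZNF814 circle novel_circ_0015702, at chr19:57876916-57889008 on the minus strand, had 2, 2 and 4 reads in cadmium libraries and 0, 4 and 0 reads in control libraries. Together these 2 circles took 0.00696 ± 0.000462% of junction reads in cadmium libraries and 0.00564 ± 0.00288% in control libraries (SD, n = 3 each; two-sided exact permutation p = 0.7), from 61 reads in all. Without control replicate 3 the difference turned to -0.000290 percentage points.

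Among circles of genes that overlap without a read-through, the ARID4B and RBM34 circle hsa_circ_0017041 had 6, 7 and 3 reads in cadmium libraries and 15, 5 and 11 reads in control libraries. ARID4B encodes a subunit of a histone deacetylase complex. The LRRC23 and RPL13P5 circle novel_circ_0005689 had 5, 0 and 7 reads in cadmium libraries and 10, 9 and 7 reads in control libraries. The 5 members with 3 identifiers came from CHMP4A, the pseudogene BMS1P4, and AP000347.1, which was listed with the read-through gene GUSBP11. CHMP4A encodes a subunit of the ESCRT-III membrane machinery. These 5 members had between 30 and 80 reads each over the 6 libraries.

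As a class, the members took about the same part of each library in both groups. Their share of junction reads was 1.73%, 1.73% and 1.94% in cadmium libraries and 1.71%, 1.74% and 1.83% in control libraries. The groups overlapped, with means of 1.80 ± 0.119% in cadmium and 1.76 ± 0.0604% in control libraries (SD, n = 3 each; two-sided exact permutation p = 0.7, where 0.1 is the smallest p that 3 against 3 allows). Cadmium replicate 3 was the highest, and without it the difference turned to -0.0271 percentage points. The number of members with reads was 189, 185 and 195 in cadmium libraries and 201, 190 and 199 in control libraries (exact permutation p = 0.2). Thinned to the total of the smallest library it was 189, 185 and 193 in cadmium libraries and 196, 190 and 199 in control libraries (exact permutation p = 0.2). The count table lists no single reads, but circles thinned to a single read were still counted. Thinning therefore does not put the libraries at equal depth.

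The annotation table also holds reads at each locus that do not cross the back-splice, and the labels and headers do not say how these were counted. The junction share doubles the junction reads, since a circle has 1 junction that stands for a pair of linear ones, and divides them by their sum with the other reads, for circles with reads in all 6 libraries. Pooled over 128 members it was 41.0%, 40.6% and 39.95% in cadmium libraries and 52.3%, 37.4% and 55.3% in control libraries. Control replicates 1 and 3 stood apart, in the 5702 single-identifier circles too (45.6% and 48.4%, against 28.7% in control replicate 2 and 29.4% to 31.2% in cadmium libraries). Group means for members were 40.5 ± 0.522% in cadmium and 48.3 ± 9.58% in control libraries (SD, n = 3 each; two-sided exact permutation p = 0.4). Without control replicates 1 and 3, a comparison added after the data were seen, cadmium was higher by 3.11 percentage points.

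Within every library the pooled junction share was higher in members than in single-identifier circles, by 8.93 ± 1.89 percentage points (SD over 6 libraries, 6 of 6 higher; exact sign-flip permutation p = 0.0312, the smallest that 6 libraries allow). The 6 libraries measure the same circles, so this p covers the spread between libraries and not the choice of circles. The order depended on which circles carried the weight. The median over circles differed by 0.0560 points (exact permutation p = 0.875). Among circles with 10 or more reads in every library, 36 members and 1823 others, the pooled share was lower in members in 6 of 6 libraries, by a difference of -3.77 ± 1.13 points (exact permutation p = 0.0312).

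**Figure D5:**
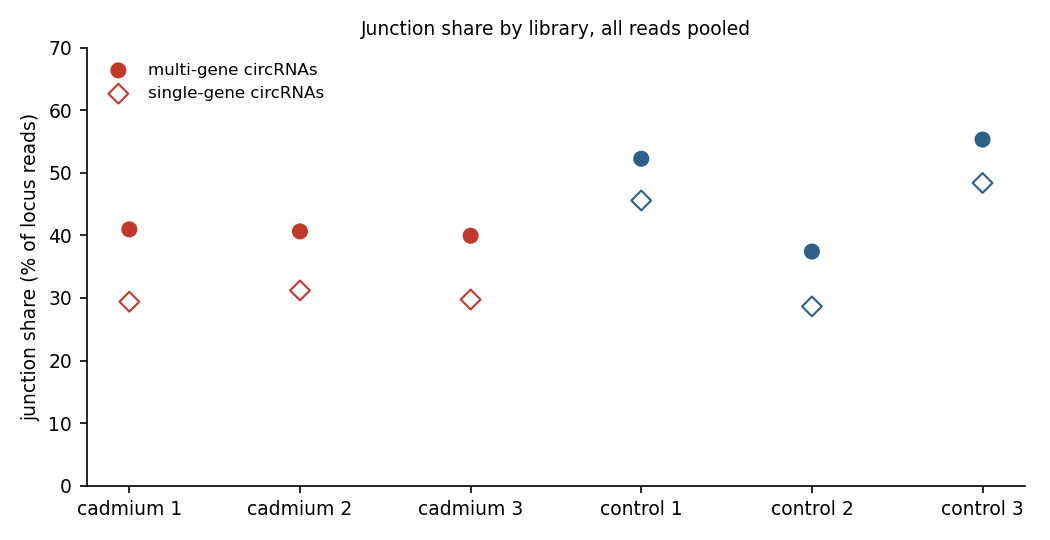
The pooled junction share of each library, in percent of locus reads, for multi-gene circRNAs (filled circles) and single-identifier circRNAs (open diamonds), cadmium in red on the left and control in blue on the right. Control replicates 1 and 3 stand above the other 4 libraries in both classes, and members lie above single-identifier circles in all 6.

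In the authors' deposited table of the comparison, 0 of the 215 members had an adjusted p under 0.05, and 6 of all 9857 circRNAs did. In the same authors' deposited table, 11 members had an unadjusted p under 0.05 with higher levels and 4 with lower levels. The share of all circRNAs at that threshold was not computed, so these counts are not a result about the members.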

How the data were processed

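The count table deposited by the authors holds back-splice junction reads, in whole numbers, for each library. The deposited TPM values, used in 1 alternative, are those counts scaled to the library total. The authors' deposited comparison table gives log2 fold changes and p-values and is used only where named. The deposited annotation gives positions, gene identifiers, lengths and the reads on and off the junction. The submitters' processing notes list hg19, Bowtie, Bowtie2 2.2.8 and DESeq 1.10.1 without saying what each was used for, and name no circRNA caller. Positions follow GRCh38: 97.9% of starts and 98.0% of ends of 9401 exonic circRNAs lie on GENCODE 29 exon bounds. Gene names, read-through tags and sequences come from GENCODE 29.

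Counts of all circRNAs were tested with edgeR 4.0.16 in R 4.3.3 (TMM, filterByExpr with a minimum count of 5 and a total of 15, robust quasi-likelihood, Benjamini-Hochberg adjustment), which kept 128 members of 6182 circRNAs. Sums per gene combination were tested in the same way. DESeq2 1.42.0, limma 3.58.1, other scalings and filters, a replicate block and each library left out were alternatives. The script was tested on simulated data. CPM uses TMM library sizes. Exact permutation tests, two-sided, compared the values of libraries. Exons were numbered in a transcript whose exon bounds match both ends, preferring one that holds the listed exons and is protein coding. Members named are the 5 higher and 5 lower with the smallest p and the 8 most abundant. The 3 combinations with the most circles, and the most abundant or unusual of each structure, are also named. The ARF3, RBM27, MED17, C11orf54, FAM53B and 1-group circles were chosen after their values were seen. The members and rules were chosen with earlier results of these data known. Without molecular identifiers, repeated reads of 1 molecule cannot be told from separate molecules.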

Additional observations from a re-analysis of the deposited data

How the results depend on the processing

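Counts of called members stayed at 0 under DESeq2 and its size factors, library totals alone and limma on log2(TPM + 1). They also stayed at 0 with no filter, a minimum count of 10 and the replicate block. Leaving out a library gave 0 to 1 called member and 0 to 1 called combination, the ARF3 circle without cadmium replicate 3 and the RBM27 circle without cadmium replicate 2. Deviations of same-numbered libraries had correlations of 0.000205, 0.0216 and 0.0517, and those of differently numbered libraries ran from -0.0447 to 0.0261. These values do not settle whether libraries were paired. The labels do not say that same numbers share a culture, so the numbers were not taken as pairs. The replicate block called 0 members, against 4 of 6182 circRNAs, and 0 combinations, against 6 of 3104 gene entries. The share of reads in members differed by -0.0271 to 0.0772 percentage points when a library was left out, and that of the circles with ends in different genes by -0.000290 to 0.00249. The junction share of members differed by 3.11 points without control replicates 1 and 3. Against single-identifier circles, the junction share differed by 0.0560 as a median of circles, by -3.77 pooled over circles with 10 or more reads, and by -3.35 as their median; these were added after the data were seen, and the cause of the change was not tested. Of 432 alternative log2 fold changes of 34 named circles, 414 kept their direction and 0 passed the threshold. The 18 others belong to 7 circles near 0, whose values with a library left out ran from -0.24 to 0.21 (BABAM1 hsa_circ_0003253), -0.28 to 0.76 (C1orf50 hsa_circ_0004752), -0.52 to 0.28 (ANKHD1 hsa_circ_0004025), -0.42 to 0.0415 (CSNK1G1 hsa_circ_0004256), -0.15 to 0.20 (RABGEF1 hsa_circ_0007992), -0.39 to 0.42 (BMS1P4 hsa_circ_0003397) and -0.37 to 0.28 (CHMP4A hsa_circ_0031357). The BMS1P4 circle was also at 0.10 under limma and 0.0299 with the replicate block. Depth limits many members: of 215, 91 had under 10 reads in every library, and 87 were not tested.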

Other observations

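Circles from both genes of a read-through were listed for 14 read-through genes, and in 8 of these pairs both combinations had enough reads for the test. Log2 fold changes were of opposite sign in 3 of the 8. The pair with the largest values on both sides was joined by AP001273.2. The C11orf54 circles summed to 11, 9 and 7 reads in cadmium libraries and 5, 4 and 3 reads in control libraries (log2 fold change 1.43 ± 0.59, edgeR adjusted p = 0.336). The MED17 circles summed to 6, 4 and 8 reads in cadmium libraries and 26, 7 and 19 reads in control libraries (log2 fold change -1.20 ± 0.46, edgeR adjusted p = 0.304). The groups did not overlap in CPM on either side. The pair was picked after its values were seen, and the difference was not tested. The EEF1AKMT2 and FAM53B circles, joined by AC068896.1, were both above all controls in each cadmium library, with log2 fold changes of 1.03 ± 0.39 and 0.72 ± 0.32 (edgeR adjusted p = 0.301 and 0.378). This pair too was picked after its values were seen, and 8.86% of all tested gene entries lay above all controls.

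Circles whose ends lay on exon bounds of different genes, with read-through genes set aside, were listed with 1 gene identifier, outside the 215 members. Whether the 2 genes overlap was not checked, so a join of separate genes is not shown. There were 5 such exonic circRNAs by GENCODE 29 exon bounds. The most abundant was hsa_circ_0000268 at chr10:124942457-124943307, with ends on exon bounds of AL731577.2 and of ZRANB1, a gene for a deubiquitinase. It had 255, 265 and 330 reads in cadmium libraries and 434, 257 and 250 reads in control libraries (log2 fold change 0.15 ± 0.14, edgeR adjusted p = 0.820). The MRPS5 and ZNF514 circle novel_circ_0025391 had 14, 10 and 16 reads in cadmium libraries and 6, 17 and 6 reads in control libraries. The PPP1CB and SPDYA circle novel_circ_0024128 had 4, 2 and 5 reads in cadmium libraries and 8, 5 and 13 reads in control libraries. A further 71 single-identifier circles had both ends on exon bounds of 2 or more GENCODE 29 genes, so the number of identifiers in an entry and the number of genes sharing the exons are not the same measure.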
